A study of Mus musculus with 2 samples.

Results

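The genes described here encode subunits of the Polycomb complexes, 35 in all: 11 of PRC2, 10 of canonical PRC1, 10 of variant PRC1, the 2 RING proteins that every PRC1 shares, and 2 of the deubiquitinase PR-DUB. They were found by symbol among the probe sets annotated to exactly 1 gene, which gave 34 of the 35 genes and 88 of 34945 such probe sets. Rybp, a subunit of variant PRC1, had no probe set annotated to it alone and has no value here. The study compared 2 mouse embryonic stem cell cultures of strain C57BL/6, 1 with genotype MOF +/+ (wild type) and 1 with MOF-/- (Mof null), with 1 array per genotype. Mof, gene symbol Kat8, encodes a histone H4 acetyltransferase. Both lines were derived at 3.5 days post coitum, used at passage 15 to 18, kept on embryonic fibroblast feeders with LIF, and passaged without feeders before RNA extraction. The sources used here do not give how Mof was inactivated or whether a line was 1 clone.

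Polycomb proteins keep developmental genes silent. PRC2 methylates a lysine of histone H3, and PRC1 attaches ubiquitin to histone H2A through its RING subunits. Canonical PRC1 carries a CBX protein, whose chromodomain binds the methylated histone, and a PHC protein, whereas variant PRC1 carries RYBP or YAF2 in place of CBX. In embryonic stem cells PRC2 and PRC1 occupy the promoters of many lineage regulators, and CBX7 is the CBX protein known to prevail there.

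Values are RMA values on a log2 scale, and a difference is null-labelled minus wild-type-labelled. A gene took the value of its brightest probe set, and genes with at least 1 value at or above 6.02, the median of all values, counted as expressed. All 34 genes passed, 33 of them on both arrays, while Cbx8 passed on the wild-type-labelled array only. With 1 array per genotype no test was possible and no difference has a replicate error. The measurable spread was that between probe sets of the same gene, with a pooled SD of 0.33 log2 units over 5362 genes. Of the 34 genes, 23 differed by more than this SD, as did 58.6% of all expressed genes.

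Kat8 stood at 8.06 on the wild-type-labelled array and 8.37 on the null-labelled array. The position of its probe set relative to the inactivated part of the gene is unknown here. The value therefore does not check the labels, on which every direction below rests. The stem cell identity of both cultures was visible in the 30 pluripotency genes listed, which were all expressed, with Pou5f1 at 12.2 and 12.7. Fibroblast markers were also present on both arrays. All 29 measured fibroblast genes lay above the level filter on both, all 29 were lower on the null-labelled array, and their summed linear level was 2.81-fold higher on the wild-type-labelled array. Of 17 measured macrophage markers 16 were expressed, all 16 were lower on the null-labelled array, where 13 still reached the filter, and their summed level differed 3.27-fold in the same direction. No defining marker of either list was at 0, since RMA values have none at 0. In bulk RNA, fewer cells of a type and less RNA per cell cannot be told apart.

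Few Polycomb genes were past 2-fold, and the complexes did not move together. Most PRC2 genes were higher on the null-labelled array, most canonical PRC1 genes were lower, and most variant PRC1 genes were higher. Only Pcgf5, at 2.04-fold higher, and Phc2, at 2.08-fold lower, were past 2-fold on the brightest probe set. That is 2 of 34 genes, against 17% of all 12015 expressed genes (2040 genes). At 1.5-fold, 10 genes were higher and 6 lower, 16 in all. This was a larger share than the 36.5% of expressed genes in either direction (17.3% higher and 19.2% lower). The median of the 34 differences was 0.20 (SD over genes 0.59), against 0.10 (SD 0.81) for all expressed genes. These directions depend on the scaling. When the pluripotency median was set to 0, which lowers every gene by 0.62, the median of the 34 differences was -0.42. Of the 34 genes 9 were then past 2-fold lower and none past 2-fold higher. Under the same scaling the median of all expressed genes was -0.52, and 25.6% of them were past 2-fold (84 genes higher and 2987 lower).

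**Figure D1:**
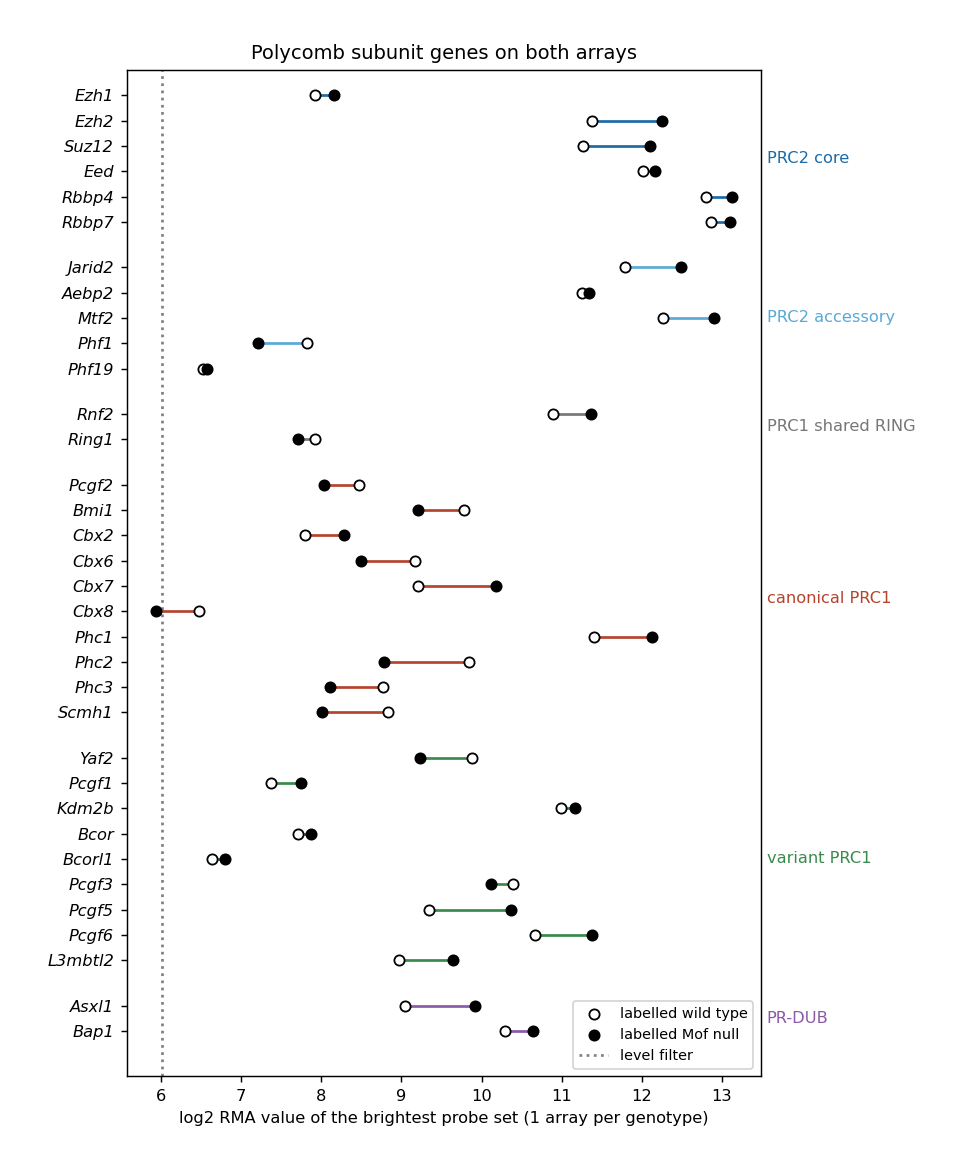
Level of each of the 34 measured Polycomb subunit genes on the wild-type-labelled array (open circles) and on the null-labelled one (filled circles), as log2 RMA values of the brightest probe set on the horizontal axis. Genes are grouped by complex, the dotted line is the level filter at 6.02, and Cbx8 is the gene that lies below it on the null-labelled array; the positions of different genes should not be compared, since probe sets differ in sensitivity.

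PRC2 core genes were all higher on the null-labelled array on their brightest probe sets, by 1.11-fold to 1.82-fold. Ezh2, the main methyltransferase of the complex in dividing cells, stood at 11.38 on the wild-type-labelled array and at 12.25 on the null-labelled one. This difference of 0.87 (1.82-fold) was exceeded by 7.70% of expressed genes. Suz12, the scaffold subunit on which PRC2 assembles, stood at 11.27 and 12.11, a difference of 0.84 (1.79-fold). All 6 Suz12 probe sets were higher, by 0.49 to 1.12, and 2 of them were past 2-fold. These genes and Jarid2 and Mtf2, described below, were the PRC2 genes more than 1.5-fold higher.

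The remaining core genes lay near the median of all genes. Eed, whose product binds the methylated histone and stimulates the enzyme, stood at 12.01 and 12.17, a difference of 0.16. With the mean of all its probe sets, which takes in 1 below the filter, its difference was -0.02. Ezh1, the paralog of Ezh2 that prevails in resting cells, stood at 7.92 and 8.16, a difference of 0.24 that its other expressed probe set gave as 0.36. Rbbp4 and Rbbp7 encode histone chaperones that also serve other chromatin complexes. Rbbp4 stood at 12.80 and 13.12, and its 4 probe sets disagreed in sign, from -0.06 to 0.32. Rbbp7 stood at 12.86 and 13.11, with probe set differences of 0.09 and 0.25. On the brightest probe sets all 4 differences stayed under the SD of 0.33.

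Accessory PRC2 genes went in different directions. Jarid2, whose product helps to recruit and stimulate PRC2, stood at 11.79 and 12.49, and its 3 probe sets were higher by 0.62 to 0.82. Aebp2, which encodes a zinc finger protein of the same PRC2 form, stood at 11.25 and 11.34. Its 4 expressed probe sets ran from -0.06 to 0.47 and gave no common direction. Mtf2, Phf1 and Phf19 encode the Polycomb-like proteins, which bring PRC2 to unmethylated CpG-rich DNA. Mtf2 stood at 12.26 and 12.90, and its 5 expressed probe sets were higher by 0.30 to 1.02. Phf1 stood at 7.82 and 7.21, a difference of -0.61 read by 1 probe set, and was the PRC2 gene that was lower. Phf19 stood at 6.53 and 6.57, both near the level filter.

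In all, 10 of 11 PRC2 genes were higher, against 56.7% of all expressed genes, and none was past 2-fold, against 17%. The median difference was 0.25 (SD over genes 0.43), against 0.10 among all expressed genes. After centring on the median gene or correcting the trend with level, 8 of 11 were still higher, as Aebp2 and Phf19 changed sign. Relative to the pluripotency median 4 of 11 were higher (Ezh2, Suz12, Jarid2 and Mtf2) and the PRC2 median was -0.37. Other genes moved the same way: the 30 pluripotency genes had a median of 0.62 and were all higher, led by Tcl1 (1.60), Fgf4 (1.52), Dppa3 (1.38) and Nr5a2 (1.20). All 28 measured cell cycle genes were higher as well, with a median of 0.71, led by Tk1 (1.22), Mki67 (1.15), Gins1 (1.13) and Bub1 (1.05). Their part in the PRC2 differences was not tested.

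E2F factors, which drive cell cycle genes, are known regulators of PRC2 core genes, so the promoters of the members were searched for the E2F core element. Promoter entries from RefSeq (build GRCm38.p6), each with 250 bases before and 50 after an annotated start, were found for 31 of the 35 genes, 44 entries in all. The motifs were TTTCCCGC, TTTCGCGC, TTTGCCGC and TTTGGCGC on either strand, with overlapping matches counted separately. Of the 44 entries 3 held a match, those of Ezh2, Suz12 and Phf19, against 2.26% of all 32851 entries and 7 of 25 entries of the cell cycle genes. The differences of these 3 genes were 0.87 for Ezh2, 0.84 for Suz12 and 0.05 for Phf19. A part of E2F factors in the differences was not tested. The sites are shown with the match in capitals and 10 bases on each side.
Ezh2 site: ggttgctgcgTTTGGCGCtcggtccggt
Suz12 site: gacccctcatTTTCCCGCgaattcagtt
Phf19 site: tcaataattcGCGGGAAAacgcgaaaaa
The Ezh2 site lies on the minus strand at chr6:47595010-47595037, its match starting at base 4 after the annotated start. The Suz12 site lies on the plus strand at chr11:79992877-79992904 and starts 219 bases before the start. The Phf19 site, on the minus strand at chr2:34914167-34914194, starts 208 bases before the start and holds the reverse complement. The 250 bases before the Suz12 start (chr11:79992856-79993105, plus strand) show the CpG-rich context of its site.
Suz12 promoter: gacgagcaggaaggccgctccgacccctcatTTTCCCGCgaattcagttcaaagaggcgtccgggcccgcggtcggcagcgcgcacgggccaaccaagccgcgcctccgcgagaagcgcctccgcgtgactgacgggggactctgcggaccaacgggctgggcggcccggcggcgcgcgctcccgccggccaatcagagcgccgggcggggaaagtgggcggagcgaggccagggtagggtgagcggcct
A match is a description of these letters and does not show that a factor binds there.

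The RING genes, shared by canonical and variant PRC1, differed in sign. Rnf2, which encodes the main ubiquitin ligase of PRC1 in embryonic stem cells, stood at 10.89 and 11.37, and its expressed probe sets were higher by 0.37 and 0.48. Ring1, its paralog, stood at 7.92 and 7.70, a difference of -0.21 that lies within the spread between probe sets. Relative to the pluripotency median both were lower.

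Canonical PRC1 was the complex whose genes were mostly lower on the null-labelled array. Of its 10 genes 7 were lower, from Pcgf2 at 1.36-fold to Phc2 at 2.08-fold. The other 3, namely Cbx2, Cbx7 and Phc1, were higher, against 56.7% of all expressed genes. The median difference was -0.55 (SD over genes 0.71), against 0.10 for all expressed genes. It was -0.66 after centring, -0.67 after trend correction and -1.18 after scaling to the pluripotency genes. Each of these settings lowers the differences of all 10 genes, so a negative median could not change sign under them. Under scaling to the pluripotency genes Cbx2 alone of the 10 changed sign. One of the 10 was past 2-fold lower, against 11.9% of expressed genes, and none was past 2-fold higher, against 5.09%.

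The PHC proteins polymerise through their SAM domains and link PRC1 complexes into larger assemblies. Phc2 stood at 9.84 and 8.78, and its 2 probe sets gave differences of -1.06 and -1.07. Phc3 stood at 8.77 and 8.11, a difference of -0.66. Phc1, by contrast, stood at 11.40 and 12.13, a difference of 0.73 (1.65-fold). Scmh1, which encodes a further SAM domain protein associated with canonical PRC1, stood at 8.83 and 8.02, a difference of -0.81. Apart from Phc2, each of these genes was read by 1 expressed probe set.

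The CBX genes divided as well. Cbx7 stood at 9.20 and 10.18, and its expressed probe sets were higher by 0.54 and 0.98. Cbx2, whose product compacts chromatin, stood at 7.80 and 8.29, a difference of 0.49. Cbx6 stood at 9.17 and 8.50, with probe set differences of -0.68 and -0.73. Cbx8 stood at 6.47 and 5.93, a difference of -0.54, and passed the level filter on 1 array only. Its other probe set, below the filter on both arrays at 5.26 and 5.51, went the other way, with a difference of 0.25.

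Both PCGF genes of canonical PRC1 were lower. Bmi1, known for repressing the senescence locus Cdkn2a, stood at 9.78 and 9.21 on its brightest probe set (-0.57) and at 8.60 and 7.55 on the other (-1.05). Pcgf2, also called Mel18, stood at 8.48 and 8.04, a difference of -0.44. Cdkn2a stood at 7.35 and 5.87, the latter below the level filter.

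Markers of other cell types were lower on the same array. Fibroblast genes had a median of -1.84, led by Col1a1 (-2.92), S100a4 (-2.66), Twist2 (-2.51) and Prrx1 (-2.28). Macrophage genes had a median of -2.09, led by Ptprc (-2.77), Tyrobp (-2.37), Adgre1 (-2.31) and Cd53 (-2.29). The 7 lower canonical PRC1 genes had differences from -0.44 (Pcgf2) to -1.06 (Phc2). The part of these cell types in the canonical PRC1 differences was not tested.

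**Figure D2:**
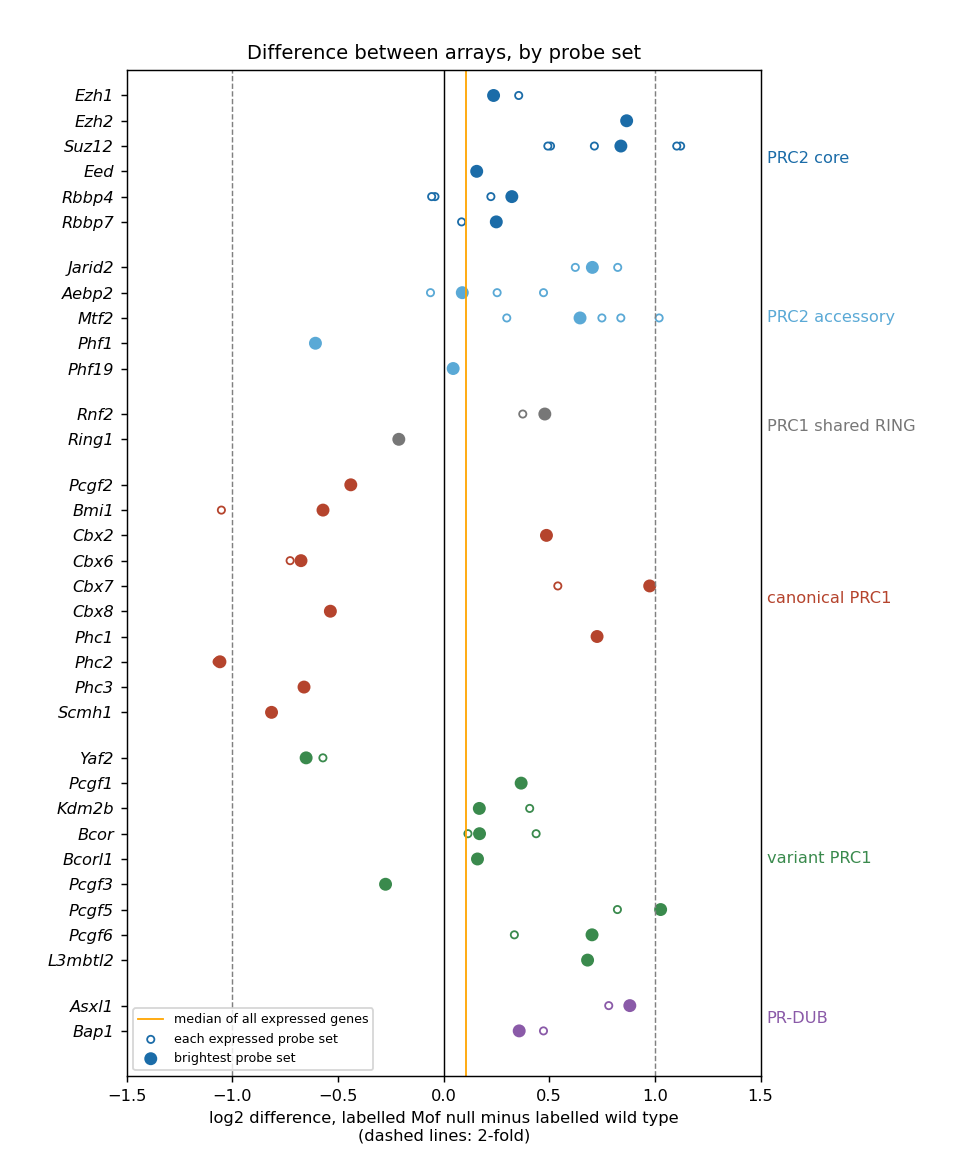
Log2 difference of each gene between the arrays (null-labelled minus wild-type-labelled, horizontal axis), with the brightest probe set as a filled circle and every other expressed probe set as an open circle, coloured by complex. The orange line marks the median of all expressed genes at 0.10 and dashed lines mark 2-fold; the canonical PRC1 genes split into 7 on the left and 3 on the right, while PRC2 genes other than Phf1 lie right of 0 on their brightest probe set.

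Of 9 variant PRC1 genes 7 were higher, against 56.7% of all expressed genes, and Yaf2 and Pcgf3 were lower. Past 2-fold, 1 of 9 was higher, against 5.09% of expressed genes, and none was lower, against 11.9%. The median difference was 0.17 (SD over genes 0.51), close to the 0.10 of all expressed genes. The median was 0.42 without probe sets whose ID ends in _s_at, _x_at or _a_at, 0.43 with the level filter at percentile 75 and 0.29 when each gene's probe sets were averaged. Its sign held after centring and trend correction. Relative to the pluripotency median 3 of 9 were higher (Pcgf5, Pcgf6 and L3mbtl2) and the median was -0.45.

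Pcgf5 had the highest difference of all Polycomb members. Together with Pcgf3 it defines a PRC1 form that deposits much of the ubiquitin on histone H2A and takes part in X inactivation. Pcgf5 stood at 9.34 and 10.37, and its expressed probe sets were higher by 0.82 and 1.03, so that 1 of 2 was past 2-fold. Pcgf3 stood at 10.40 and 10.12, a difference of -0.27 within the spread between probe sets. Pcgf6 and L3mbtl2 belong to the PRC1 form that silences germ line genes in embryonic stem cells. Pcgf6 stood at 10.67 and 11.37, and its 3 probe sets were higher by 0.33 to 0.71. L3mbtl2 stood at 8.97 and 9.65, a difference of 0.68.

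The form of PRC1 built on Pcgf1 is brought to CpG islands by the zinc finger of the Kdm2b protein and contains BCOR or BCORL1. On the brightest probe sets the differences of Kdm2b, Bcor and Bcorl1 stayed under the SD of 0.33, and that of Pcgf1 was above it. Pcgf1 stood at 7.38 and 7.75, a difference of 0.37. Kdm2b stood at 11.00 and 11.17, with probe set differences of 0.17 and 0.41. Bcor stood at 7.70 and 7.87, and its 3 probe sets ran from 0.12 to 0.44. Bcorl1 stood at 6.64 and 6.80, a difference of 0.16. Yaf2, the paralog of Rybp, stood at 9.89 and 9.23, and both its probe sets were lower, by -0.57 and -0.65. The balance between Rybp and Yaf2, which are alternative subunits, was not analysed here.

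PR-DUB removes the ubiquitin that PRC1 attaches. Asxl1, which encodes its regulatory subunit, stood at 9.04 and 9.92, and its expressed probe sets were higher by 0.78 and 0.88. Bap1, the catalytic subunit, stood at 10.29 and 10.64, with probe set differences of 0.36 and 0.47. Relative to the pluripotency median Asxl1 stayed higher and Bap1 did not.

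Pairs of paralogous subunits were compared, including some of different PRC1 forms, such as Pcgf1 and Pcgf6. In each pair the difference of one gene was set against that of the other. The sensitivity of a probe set and any shift of all genes by a constant cancel in this contrast. Of 19 pairs with values, which share 24 genes and so are not independent, 8 were shifted against each other at least 2-fold and 13 by more than 0.47, the spread between probe sets applied to a contrast. Of all pairs of expressed genes 32.5% and 61.1% were shifted by these amounts, so differences of this size between 2 genes were common on these arrays. Without Cbx8, which was below the level filter on the null-labelled array, 6 of 16 pairs were past 2-fold, a count chosen after seeing the data. The shift was largest between Phc1 and Phc2, where the ratio of Phc1 to Phc2 was 3.45-fold higher on the null-labelled array, with probe set contrasts from 1.79 to 1.80. The ratio of Phc1 to Phc3 was 2.62-fold higher. Cbx7 gained 3.14-fold on Cbx6, with probe set contrasts from 1.22 to 1.70, and Cbx2 gained 2.24-fold on Cbx6. The ratios to Cbx8 were 2.85-fold higher for Cbx7 and 2.03-fold higher for Cbx2, with Cbx8 at 5.93 and thus below the filter on the null-labelled array.

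In PRC2, Mtf2 gained 2.38-fold on Phf1, with probe set contrasts from 0.91 to 1.63. Ezh2 gained 1.55-fold on Ezh1. In variant PRC1, Pcgf5 gained 2.47-fold on Pcgf3, and the shared subunit Rnf2 gained 1.61-fold on Ring1. Bmi1 and Pcgf2, both lower, were shifted by 1.10-fold on their brightest probe sets, with probe set contrasts of 0.13 and 0.61, and by 0.63 on the log2 scale with the mean of all probe sets. In 16 of 19 pairs every combination of expressed probe sets gave the same sign, but 3 of these pairs had a single combination. The exceptions were Rbbp4 with Rbbp7, Pcgf1 with Pcgf6, and Bcor with Bcorl1. The matching share over all pairs of expressed genes was not computed.

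**Figure D3:**
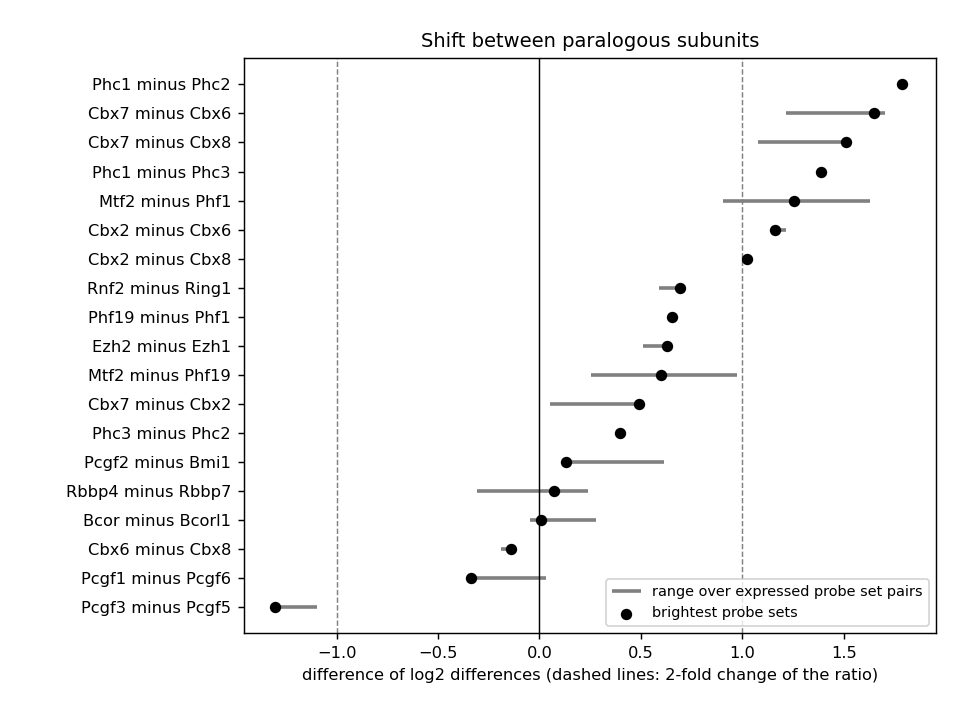
Contrast of paralogous subunits, as the log2 difference of the first gene minus that of the second (horizontal axis), for 19 pairs. Points use the brightest probe sets, bars span all pairs of expressed probe sets, and dashed lines mark a 2-fold change of the ratio; Phc1 against Phc2 lies farthest to the right at 1.79 and Pcgf3 against Pcgf5 farthest to the left at -1.30.

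Of 41 further Polycomb-associated genes 36 had a probe set and 34 were expressed. Of these 21 were higher and 13 lower, 3 were at least 2-fold higher and none was 2-fold lower, and the median was 0.18. The shares among all expressed genes were 56.7% higher, 5.09% past 2-fold higher and 11.9% past 2-fold lower, and their median was 0.10. Sfmbt2, an imprinted gene for an MBT domain protein, stood at 8.20 and 10.02 (3.54-fold). Scml2, which encodes a germ line partner of PRC1, stood at 9.06 and 10.35, and its 2 probe sets agreed at 1.29 and 1.31. Ezhip, whose product inhibits PRC2, stood at 7.20 and 8.32, and Wdr5, found in one variant PRC1 and in histone H3 methyltransferases, at 10.66 and 11.55. Ezhip was thus higher on the same array as Ezh2 and Suz12. Relative to the pluripotency median all 4 were still higher.

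Regulators known as Polycomb targets in embryonic stem cells went both ways. Of 54 such genes 49 had a probe set and 28 were expressed, and a target that passed the filter on 1 array only had to differ. Of the 28, 12 were past 2-fold lower and 6 past 2-fold higher, against 11.9% and 5.09% of all expressed genes. The median was 0.04 and the mean -0.37. Of the 18 genes past 2-fold 6 (Cdkn2a, Emx2, Gata3, Lhx1, Pax6 and Zic1) passed the filter on 1 array only. Of the 20 that passed on both arrays, 8 were past 2-fold lower and 4 past 2-fold higher. The matching shares over all genes that passed on both arrays were not computed. The lowest differences were those of Zic1 (-2.95) and Emx2 (-2.42), both below the filter on the null-labelled array at 5.46 and 5.17, followed by the cell cycle inhibitor gene Cdkn2b (-2.32) and the mesenchymal regulator Snai2 (-2.27). The fibroblast genes had a median of -1.84, and the part of fibroblasts in the differences of the targets was not tested. The 21 targets with a probe set below the filter on both arrays included Pax7, Nkx2-2, Lhx5, Neurog1, Neurog2 and Evx1.

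**Figure D4:**
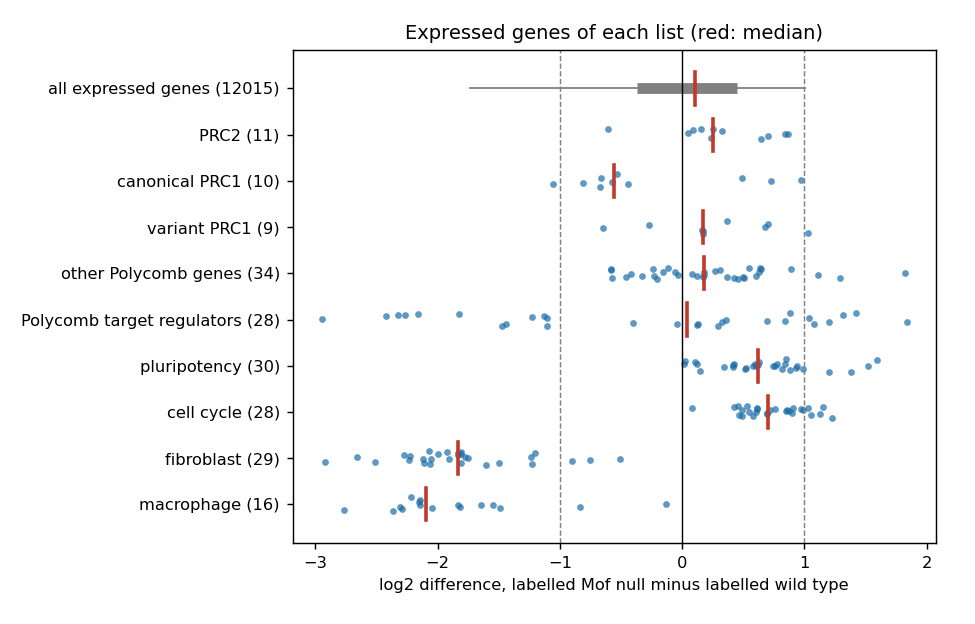
Log2 difference (null-labelled minus wild-type-labelled, horizontal axis) of every expressed gene in each list, with the number of genes in brackets and the median in red; for all 12015 expressed genes the thick bar is the interquartile range and the thin line runs from the 5th to the 95th percentile. PRC2 and variant PRC1 medians (0.25 and 0.17) lie near that of all genes, the canonical PRC1 median (-0.55) lies below it, and the fibroblast and macrophage medians (-1.84 and -2.09) lie lowest.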

How the data were processed

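Total RNA of each of the 2 cultures was hybridised to 1 array. The table deposited by the authors holds a log2 value per array for 45101 probe sets, from RMA (affy, R 2.10.0) per the submitters' processing notes. RMA corrects background, equalises the distributions of arrays by quantile normalization and summarises probes by median polish. A change of most transcripts in one direction is therefore removed, and differences near the floor and saturation are compressed. The number of arrays limits the precision.

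Probe sets were named through the supplied platform annotation. Of 35890 annotated probe sets 34945 name 1 gene and are no controls, and they cover 18194 genes. The brightest probe set stood for a gene. Thresholds were 2-fold and 1.5-fold. The members and lists were chosen with earlier results of these data known. Named genes were all members, Kat8, and of each other list at most 4 expressed genes with the largest absolute difference. Other named genes were chosen after their values were seen. The counting was tested on simulated data. Alternatives covered probe set summary and choice, the level filter (none, percentile 75), centring, lowess (span 0.3) and scaling to the pluripotency list. Software versions were Python 3.11.15, pandas 2.3.3, numpy 2.4.6, statsmodels 0.14.6 and matplotlib 3.10.9.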

Additional observations from a re-analysis of the deposited data

How the results depend on the processing

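With 1 array per genotype no array could be left out, and no paired analysis was possible because neither group has a second replicate. Of the 2 members past 2-fold, 1 was left (Phc2) with the mean of all probe sets, with centring and with lowess correction. There were 9 members past 2-fold relative to the pluripotency median, 16 at a threshold of 1.5-fold and 0 at 4-fold. Relative to the pluripotency median the medians became -0.42 for all members, -0.37 for PRC2, -1.18 for canonical PRC1 and -0.45 for variant PRC1. That scaling gave all expressed genes a median of -0.52. Among them 84 were then at least 2-fold higher and 2987 lower, against 611 and 1429 as deposited. The other alternatives moved these medians by less than 0.33. Paralog pairs shifted at least 2-fold numbered 8 of 19, 5 of 15 with the mean of all probe sets and 4 of 7 with the filter at percentile 75, where fewer genes were compared. Cbx7 and Scmh1 moved to 0.42 and -0.42 with the mean of all probe sets, which takes in probe sets below the filter.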

Other observations

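The histone H3 demethylase genes Kdm6a and Kdm6b stood at 9.29 and 9.78 and at 9.97 and 10.15 on the wild-type-labelled and null-labelled arrays, and the related Y-linked gene Uty at 7.71 and 7.48. The 3 expressed probe sets of Kdm6a ran from -0.43 to 0.50 and gave no common direction. Epop, whose product binds PRC2 in embryonic stem cells, stood at 9.25 and 9.09. Among the sex-linked genes, Xist, which recruits Polycomb complexes to the inactive X, stood at 8.31 and 8.74, and the Y-linked genes Eif2s3y and Kdm5d at 9.70 and 9.85 and at 8.44 and 8.69. The X-linked members Rbbp7, Bcor and Bcorl1 differed by 0.25, 0.17 and 0.16.

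Of the 67 expressed probe sets of the members 7 were past 2-fold, against 15.6% of all 20935 expressed probe sets with 1 gene. They read Suz12 (2 probe sets), Mtf2, Pcgf5, Bmi1 and Phc2 (2 probe sets). Among 19 members with several expressed probe sets, 17 had probe sets of a single sign, and Aebp2 and Rbbp4 did not. The matching share over all 5362 genes with several expressed probe sets was not computed.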
